A study of Mus musculus with 6 samples.

Results

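The transcripts described here encode 10 parts of the actomyosin machinery, the myosin regulatory light chain Myl9 together with Myl6, Myh9, Mylk, Acta2, Cald1, Cnn1, Tagln, Tpm1 and Tpm2. They were taken by gene symbol, and all 10 were among the 10520 genes with a count. The data were 6 MARS-seq libraries of E0771 cells, a breast carcinoma line of C57BL/6 mice, and MARS-seq counts unique molecular identifiers (UMIs) at the 3′ end of polyadenylated RNA, so that a UMI stands for a captured molecule whatever the length of its transcript. The 3 shControl libraries came from cells that had received the TRC2 pLKO.5-puro empty vector by lentivirus, and the 3 shLmna libraries from cells that had received a lentiviral shRNA against Lmna, the gene of lamin A and lamin C. Both groups had been selected with puromycin at 3 µg/mL and kept as pools of selected cells. The comparison asks which transcripts changed when lamin A/C, which stiffens the nucleus, was lowered. A single hairpin was used, so that its effect and that of less lamin A/C cannot be told apart. The sample titles number the shControl libraries 13 to 15 and the shLmna libraries 16 to 18, so that group and any order of handling cannot be told apart either. The labels do not say that the libraries of a group were separate cultures, and the p-values therefore measure the spread between these libraries, which may be technical.

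In non-muscle cells, contraction is driven by bipolar filaments of myosin II that pull on actin filaments, and the motor is switched on when its regulatory light chain is phosphorylated, for example by myosin light chain kinase, and switched off by myosin phosphatase. Tropomyosins, caldesmon, calponin and transgelin bind along the actin filament and modulate or stabilise it. Several of these genes, with the actin gene Acta2, are best known from smooth muscle, myofibroblasts and myoepithelial cells, and many are classical targets of serum response factor (SRF), which binds the CArG box and is brought into action by its cofactors when free actin monomers become scarce.

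Lmna, the target, fell. Its 3 shControl libraries (given, here and below, in the order of replicates 1, 2 and 3) held 2066, 2794 and 1764 UMIs and its 3 shLmna libraries 1035, 1023 and 713, a log2 fold change of -1.20 (SE 0.132). The libraries held from 1846208 to 3242051 UMIs, and counts scaled to the mean library by TMM factors are called normalized counts below. The contrast was fitted with edgeR over the 8969 genes that passed a filter on low counts (at least 3.78 CPM, a count scaled to library size, in 3 libraries), and a gene was called when its mean normalized count was above 5, its absolute log2 fold change above 1 and its Benjamini-Hochberg adjusted p below 0.05. By these thresholds 356 genes (3.97%) were called higher and 156 (1.74%) lower in shLmna. In 16.8% of the tested genes every shLmna library was above every shControl library, and in 15.7% every shLmna library was below. The 10 genes were chosen with results of this same contrast known, so that their differences are given as a description, with no test.

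The promoters are shown first because Myl9, which gives the group its name, holds the SRF element. RefSeq start sites on GRCm38.p6 were found for 9 of the 10 genes, all but Tagln, in 11 windows that run from 250 bases before to 50 after the start. For Myl9 the start site of the window is base 156775464, which lies past the end of the stretch shown. This stretch, upstream of its first annotated exon, is printed 5′ to 3′ on the plus strand. The capitals mark a CArG box that begins 161 bases before that start site. They also mark, 99 bases before the same site, a copy of the box with 1 G or C in its A/T core.
Myl9, chr2:156775214-156775407 (+): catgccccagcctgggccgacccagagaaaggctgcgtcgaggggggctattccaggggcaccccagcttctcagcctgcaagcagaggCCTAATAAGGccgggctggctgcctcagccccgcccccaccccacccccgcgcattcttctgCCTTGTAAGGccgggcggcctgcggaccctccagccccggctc

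A CArG box with no G or C in the core was found in the windows of 2 of the 9 genes, Myl9 and Myl6, and in 1.63% of all 32851 promoter windows. The form with 1 G or C in the core was in the windows of 2, Myl9 and Acta2, and in 8.50% of all windows. The boxes of Myl6 and Acta2 lie in exons that GENCODE annotates for other transcripts of the same genes, Myl6 at its downstream start 50 bases before it and Acta2 at 84 and 34 bases before its start. They are set out here with 10 bases on either side, on the minus strand and with the box in capitals, so that they can be read against the Myl9 boxes above.
Myl6, chr10:128493040-128493069 (-): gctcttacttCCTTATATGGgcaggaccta
Acta2, distal, chr19:34255438-34255467 (-): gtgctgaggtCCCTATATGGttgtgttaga
Acta2, proximal, chr19:34255388-34255417 (-): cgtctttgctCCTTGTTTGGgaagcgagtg
The M-CAT element, searched as CATTCC on both strands as the binding motif of TEAD factors, was in windows of 4 of the 9 genes, Acta2, Cald1, Tpm1 and Mylk, and in 14.7% of all windows. The TATA box, searched as TATAAA on both strands, was in windows of Cald1 and Myh9 and in 13.6% of all. Neither window of Cald1 held a CArG box of either form, and the windows of Cnn1 and Tpm2 held none of the 4 motifs. These matches are a description of the letters in the windows. Many of the genes are classical SRF targets, and some have several windows while the shares are of single windows. No excess is therefore read from them.

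Myl9, the regulatory light chain of smooth muscle and non-muscle myosin II, was higher in every shLmna library. It lies on chromosome 2 (156775420-156781658, plus strand, GRCm38). The libraries held 137, 187 and 121 Myl9 UMIs in shControl and 567, 586 and 489 in shLmna. Each shLmna library thus held more Myl9 molecules than any shControl library, and the deepest library, shControl replicate 2, held fewer than the shallowest, shLmna replicate 3. Its normalized counts averaged 146.1 ± 13.02 (SD, n = 3) for shControl against 569.4 ± 66.4 for shLmna, a ratio of means of 3.90 and a log2 fold change of 1.96 (SE 0.154, 95% interval 1.64 to 2.29). Of the 976 words of 25 bases in the last 1000 bases of its transcript, 15 (1.54%) also occur in transcripts of other genes, among them Myl12a and Myl12b, so that few of its reads could have been shared with them.

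The other regulatory light chain genes, Myl12a and Myl12b, were also among the counted genes, and they moved differently. Myl12a, the most abundant of the 3, had 3363 ± 273 normalized counts in shControl and 3038 ± 160 in shLmna, a log2 fold change of -0.15 that did not pass (edgeR, adjusted p = 0.509). Myl12b was at 163.0 ± 9.43 and 257.5 ± 14.7, a log2 fold change of 0.66 with an edgeR adjusted p of 0.0084, under the 2-fold threshold. Myl9 therefore made up a larger share of the regulatory light chain UMIs in shLmna. It was 3.71% of them in shControl replicate 1 (137 of 3692, Wilson 95% interval 3.15 to 4.37%), 3.67% in replicate 2 and 4.61% in replicate 3. In shLmna it was 13.8% in replicate 1 (567 of 4116, interval 12.8 to 14.9%), 14.6% in replicate 2 and 15.7% in replicate 3. The group means were 4.0 ± 0.533% and 14.7 ± 0.988% (SD, n = 3). Myl12a UMIs still outnumbered those of Myl9 in every library.

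The essential light chain Myl6 and the heavy chain Myh9, which complete the non-muscle myosin II motor, were not called. Myl6 (chromosome 10, 128490860-128494145, minus strand) held 233, 307 and 248 UMIs in shControl and 357, 489 and 240 in shLmna. Its normalized counts overlapped, since shControl replicate 3 (326.9) was above shLmna replicate 3 (317.0), and the log2 fold change was 0.48 (SE 0.180). With a library left out the value ran from 0.31 to 0.64, the highest without shControl replicate 3. Of its terminal words of 25 bases 5.84% occur in transcripts of other genes, all of them predicted genes named Gm, and reads from these and from Myl6 may have been mixed. Myh9 (chromosome 15, 77760587-77842175, minus strand), the heavy chain of myosin IIA, held 751, 993 and 579 UMIs in shControl and 793, 836 and 638 in shLmna. It had the smallest log2 fold change of the group, 0.05, at 755.4 ± 20.9 and 781.2 ± 54.7 normalized counts, with a 95% interval from -0.23 to 0.33. Leaving out shLmna replicate 3 gave -0.0079. The 2 other non-muscle heavy chain genes, Myh10 and Myh14, were not found among the counted genes.

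Mylk, the calcium- and calmodulin-dependent kinase that phosphorylates the regulatory light chain, was near the detection limit. The counts were 2, 4 and 3 UMIs in shControl and 4, 13 and 3 in shLmna, so that a single library, shLmna replicate 2, stood above the rest and the other shLmna libraries lay within the shControl range. The gene did not pass the filter on low counts and was not tested. A difference in Mylk was not detectable at this depth.

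**Figure D1:**
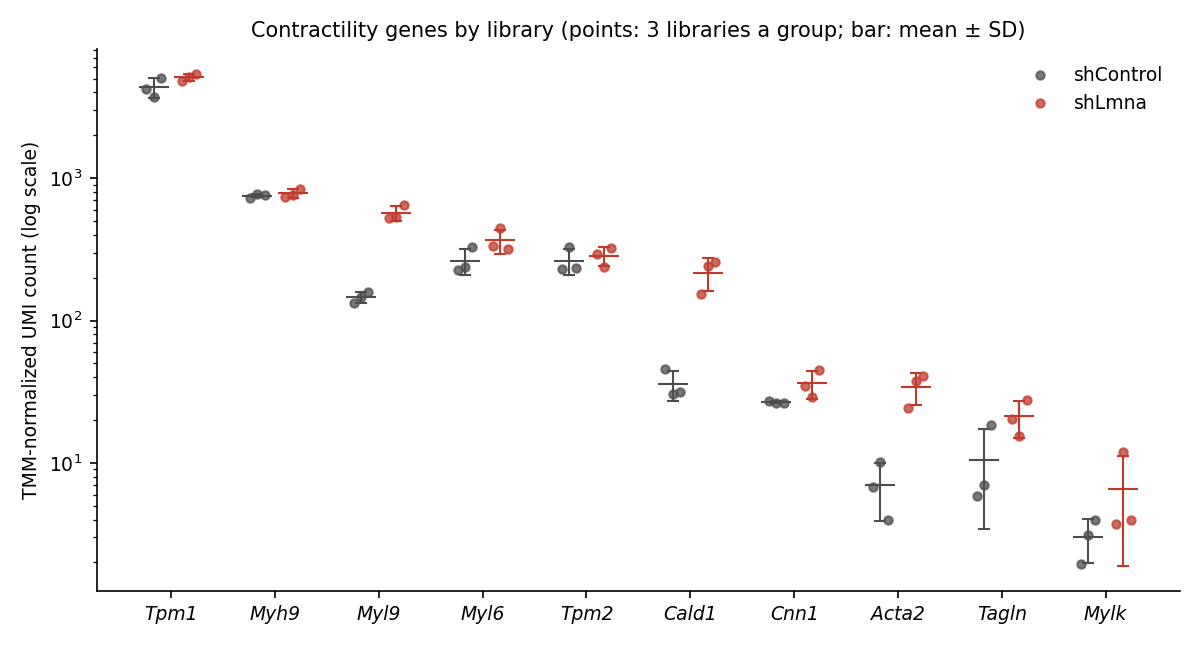
TMM-normalized UMI counts (log axis) of the 10 contractility genes in each of the 3 shControl (grey) and 3 shLmna (red) libraries, ordered by level, with points for libraries and bars for the mean and SD. Myl9, Cald1 and Acta2 show a wide gap between the groups, Cnn1 a narrow one, and the other 6 genes overlap.

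Acta2, the α-smooth muscle actin that is widely used as a myofibroblast and smooth muscle marker, was scarce in both groups and higher in shLmna. On chromosome 19 (34241090-34255590, minus strand), it gave 7, 13 and 3 UMIs in shControl and 26, 41 and 31 in shLmna. No shControl library reached the lowest shLmna library. The normalized counts were 6.96 ± 3.07 and 34.2 ± 8.82 (SD, n = 3), a log2 fold change of 2.18 (SE 0.372, 95% interval 1.39 to 2.97). In the authors' ComBat log2 values the difference of means was 0.55. In shControl 1 of 3 libraries was at the level the filter asks for, against 3 of 3 in shLmna, so that the gene entered the fit through the group in which it was high. Even in shLmna its level was a small part of the actin messages, 0.298 ± 0.0973% of the UMIs of the 6 actin genes against 0.0466 ± 0.0245% in shControl.

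Of the other 3 muscle actins, 2 were called higher as well. Acta1, skeletal α-actin, gave 15, 14 and 9 UMIs in shControl and 52, 32 and 41 in shLmna and rose with a log2 fold change of 1.80 (SE 0.317, edgeR adjusted p = 0.0019). Actc1, cardiac α-actin, gave 117, 154 and 106 UMIs against 377, 244 and 440 and rose with a log2 fold change of 1.62 (SE 0.266, adjusted p = 0.0011). Both were above the shControl range in every shLmna library. Actg2, the γ-actin of enteric smooth muscle, gave 168, 173 and 107 UMIs against 272, 281 and 282, at a log2 fold change of 0.999 (adjusted p = 0.0022) that lay just under the threshold of 1. In 7 of 14 alternative analyses it passed. The cytoplasmic actins were not called, with Actb at a log2 fold change of -0.46 (adjusted p = 0.072) and Actg1 at 0.02 (adjusted p = 0.964).

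Added together, the 4 muscle actins were 1.57%, 2.03% and 2.19% of all actin UMIs in the shControl libraries, against 5.23%, 4.96% and 9.42% in the shLmna libraries. The group means were 1.93 ± 0.323% and 6.54 ± 2.50%. shLmna replicate 3 had the highest share, and both Actc1 (581.3 normalized counts) and Actg2 (372.5) were highest there. The share rests on actins whose reads are hard to place, since 46.2% of the terminal words of Actb and 28.3% of those of Actg1 occur in transcripts of other genes, against 6.35% for Actg2, 5.64% for Acta2, 2.77% for Acta1 and 2.56% for Actc1. How reads with several matches were counted is not given in the sources used here.

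**Figure D2:**
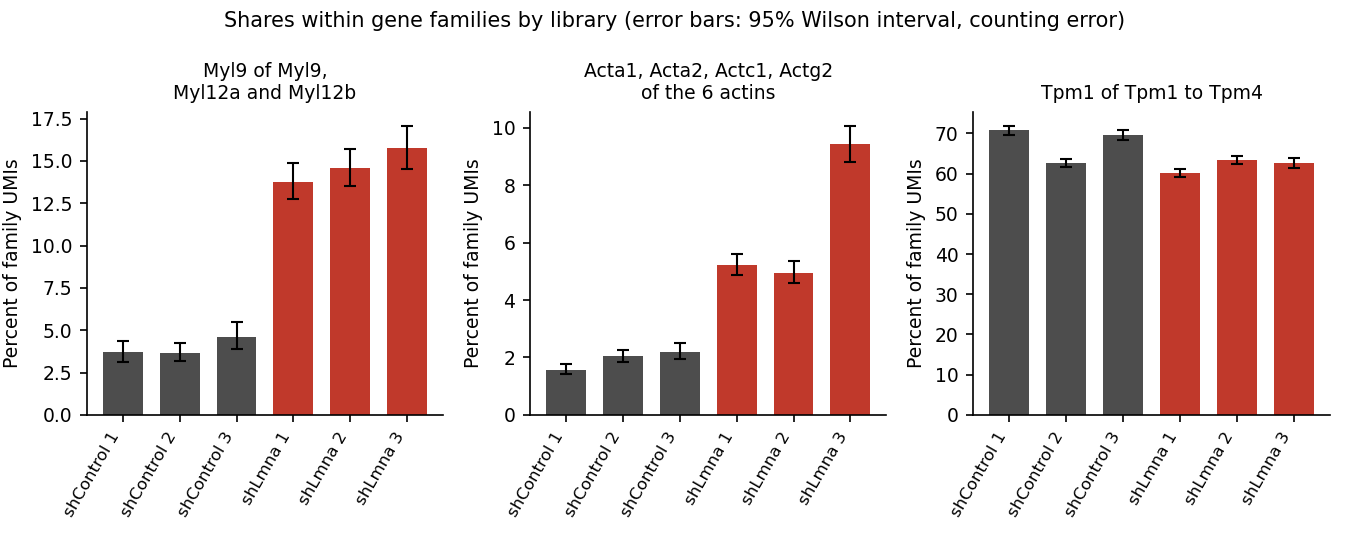
Percent of family UMIs taken by Myl9 among 3 regulatory light chain genes, by Acta1, Acta2, Actc1 and Actg2 among 6 actin genes, and by Tpm1 among 4 tropomyosin genes, in each library (grey shControl, red shLmna, error bars the Wilson 95% interval for counting error). Myl9 went from 3.67 to 4.61% in shControl to 13.8 to 15.7% in shLmna, while the Tpm1 shares of the groups overlapped.

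Caldesmon, the product of Cald1, binds actin, myosin and tropomyosin and restrains the myosin motor, and its transcript had the largest log2 fold change of the 9 tested genes. Cald1 (chromosome 6, 34598500-34775473, plus strand) gave 47, 39 and 24 UMIs in shControl and 164, 267 and 194 in shLmna. The lowest shLmna library (152.7 normalized counts) lay well above the highest shControl library (45.8). The normalized counts were 35.9 ± 8.59 and 217.5 ± 56.5, a ratio of means of 6.06 and a log2 fold change of 2.59 (SE 0.241, 95% interval 2.08 to 3.10). None of its terminal words of 25 bases occurs in another gene. The last 1000 bases of its transcript had a GC content of 37.1%, the lowest of the 10 (Myl9 had 56.4%), where the median was 39.5% for all genes called higher and 47.1% for all tested genes. With a correction for GC content the log2 fold change of Cald1 was 2.43.

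The remaining actin-binding genes were not called. Cnn1, the calponin of smooth muscle, gave 28, 34 and 20 UMIs in shControl and 37, 32 and 34 in shLmna. Its normalized counts lay between 26.4 and 27.3 in shControl and between 29.2 and 44.9 in shLmna, with no overlap and a log2 fold change of 0.42 (SE 0.258). When all libraries were thinned to the depth of the smallest, it was 0.088. Its relatives Cnn2 (0.47, edgeR adjusted p = 0.025) and Cnn3 (0.33, adjusted p = 0.137) were much more abundant. Of all calponin UMIs Cnn1 took 0.989 ± 0.0387% in shControl and 0.977 ± 0.212% in shLmna.

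Tagln, or SM22α, an actin-bundling protein of smooth muscle and activated fibroblasts, gave 6, 9 and 14 UMIs in shControl and 22, 17 and 21 in shLmna. shControl replicate 3, at 18.5 normalized counts, was above shLmna replicate 2, at 15.5, while the other 2 shControl libraries were at 5.85 and 6.99. The log2 fold change was 1.09 (SE 0.426, 95% interval 0.18 to 2.0) and the gene was not called. Without shControl replicate 3 the value was 1.66 and the gene passed all thresholds. Without shControl replicate 1 it was 0.81 and the gene did not pass. As with Acta2, 1 shControl library and all 3 shLmna libraries were at the level of the filter. Its counted end on chromosome 9 overlaps exons of Pcsk7 and Gm48529 on the opposite strand, and whether the counting used the strand is not given in the sources used here. Tagln2, the broadly expressed relative, had 3084 ± 645 and 2870 ± 574 normalized counts (log2 fold change -0.10, adjusted p = 0.755).

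The tropomyosins Tpm1 and Tpm2, which lie along the actin filament and gate the access of myosin, were not called. Tpm1 alone made up from 68.3 to 76.5% of the summed normalized counts of the 10 genes. It gave 4354, 4768 and 3860 UMIs in shControl and 5157, 5635 and 4080 in shLmna, or 4344 ± 698 and 5110 ± 295 normalized counts, with a log2 fold change of 0.23 (95% interval -0.08 to 0.55). The groups overlapped, since shControl replicate 3 was above shLmna replicate 1. Tpm2 gave 238, 421 and 177 UMIs and 317, 262 and 246, with shControl replicate 2 the highest library of all on the normalized scale (327.0), and a log2 fold change of 0.11 (95% interval -0.27 to 0.48).

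Tpm4, a tropomyosin of the cytoplasmic type, rose where Tpm1 and Tpm2 were not called. It gave 421, 1042 and 677 UMIs in shControl and 1797, 1652 and 1406 in shLmna, a log2 fold change of 1.26 (SE 0.221, edgeR adjusted p = 0.0019). shControl replicate 1 was the lowest library, and without it the value was 0.97, under the threshold. Tpm3 was at 0.08 (adjusted p = 0.742), and 80.8% of its terminal words occur in other genes. Tpm1 went from 67.7 ± 4.39% of tropomyosin UMIs in shControl to 62.1 ± 1.71% in shLmna and Tpm2 from 4.20 ± 1.20% to 3.48 ± 0.458%, with overlapping libraries in both.

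**Figure D3:**
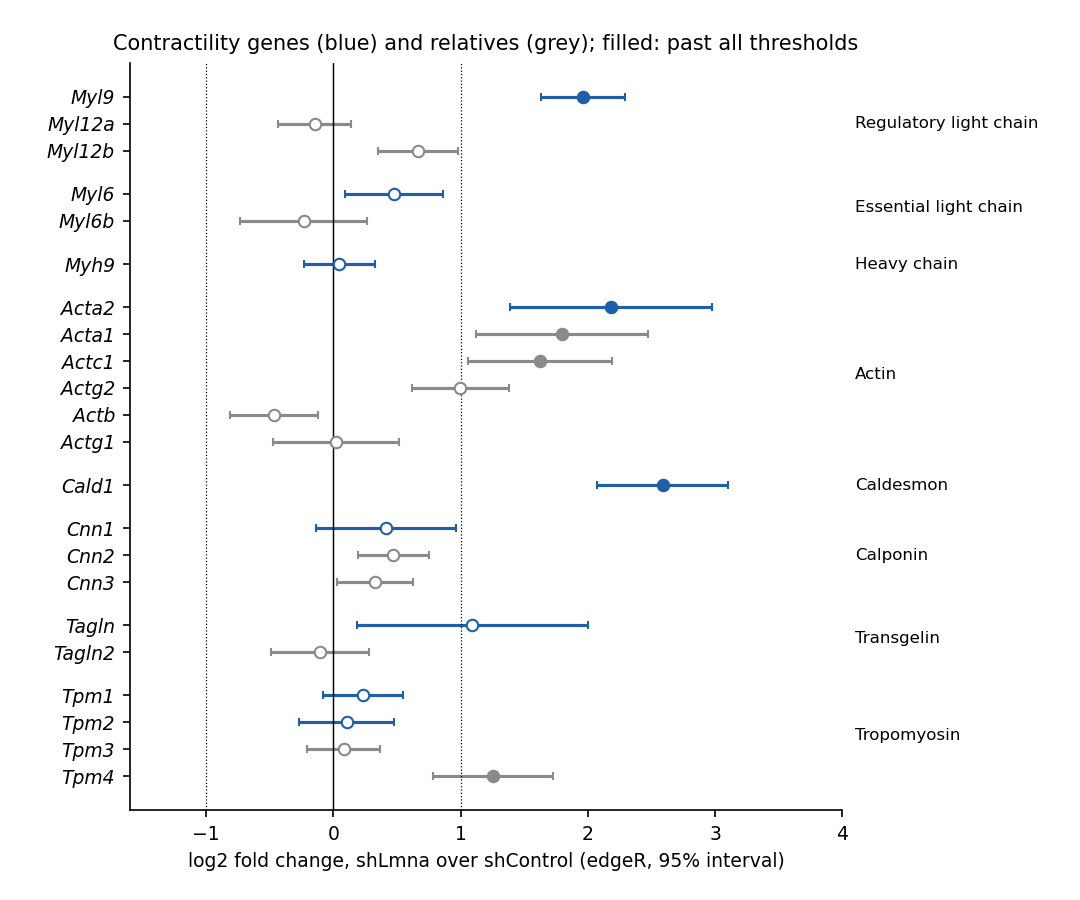
Log2 fold changes of shLmna over shControl from edgeR with 95% intervals for the tested contractility genes (blue) and their measured relatives (grey), grouped by protein family. Filled points passed all thresholds, dotted lines mark a log2 fold change of 1 either way, and Myl9, the 3 α-actins, Cald1 and Tpm4 lie to the right of the line at 1 as filled points.

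Of the 10 genes 9 were tested, 3 of them (Myl9, Acta2 and Cald1) passed all thresholds upwards and 0 downwards, where 3.97% and 1.74% of all tested genes did. In 4 of the 9 (these 3 and Cnn1) every shLmna library was above every shControl library, where 16.8% of all tested genes were so, and in 0 of the 9 was it below. The log2 fold changes ran from 0.05 for Myh9 to 2.59 for Cald1 with a median of 0.48, and the median over all tested genes was 0.0033. Since the genes were chosen with this contrast known, nothing is read from these counts. Within the group, the 3 called genes were not those with the highest levels. Myl9 and Cald1 were at middle levels, Acta2 was among the lowest, and Tpm1 and Myh9, the most abundant, had log2 fold changes of 0.23 and 0.05.

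Further genes of the pathway were counted from 5 lists that do not hold the 10 genes. These lists too were chosen with earlier results of these data known, so that their counts are given as a description. Of 92 listed genes 73 were among the counted genes and 68 were tested. Of these, 5 were called higher (Ppp1cb, Acta1, Actc1, Thbs1 and Tpm4) and 2 lower (Rhob and Ctgf), against 3.97% and 1.74% of all tested genes. At an edgeR adjusted p below 0.05 whatever the size, 10 were higher and 5 lower, against 7.96% and 5.78% of all tested genes. The same shares over all tested genes apply to the counts of single lists below. The median log2 fold change of the 68 was -0.07, against 0.0033 over all tested genes. These genes thus lay on both sides of 0.

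The widest changes in either direction among the 68 genes were those of Ppp1cb and Rhob. Ppp1cb, the catalytic subunit of myosin phosphatase, gave 1, 5 and 4 UMIs in shControl and 45, 51 and 37 in shLmna, a log2 fold change of 3.76 (SE 0.393, edgeR adjusted p = 2.5e-05). It too entered the fit through the shLmna libraries. Rhob, a small GTPase found on endosomes, gave 1691, 2333 and 1229 UMIs in shControl and 581, 538 and 441 in shLmna and fell, with a log2 fold change of -1.66 (SE 0.138, adjusted p = 3.8e-06).

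Of 5 tested myosin chain genes 0 were called, with 1 at an adjusted p below 0.05, Myl12b. Myl7 and Mylpf, light chains of cardiac and fast skeletal muscle, and Myl6b, a relative of Myl6, were between -0.32 and -0.23, and Myl4, at 3 to 6 UMIs, was not tested. The counted end of Myl6b overlaps exons of Myl6 on the same strand. The kinase relative Mylk2 was at 0 to 8 UMIs and was not tested either. Of 13 actins and thin filament proteins 3 were called higher and 0 lower, the Acta1, Actc1 and Tpm4 described above.

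Of 15 crosslinkers and adhesion-end proteins of the stress fibre 0 were called in either direction, and at an adjusted p below 0.05 1 was higher and 2 were lower. The most abundant of them, the mechanosensitive LIM protein Zyx and the crosslinker Flna, had log2 fold changes of -0.25 and 0.15 (adjusted p = 0.276 and 0.496). SRF, its cofactors and further known SRF targets numbered 13 tested genes, of which 1 was called higher and 1 lower. Thbs1, a matricellular glycoprotein, gave 7, 9 and 4 UMIs against 16, 24 and 17 and was called higher (log2 fold change 1.58, adjusted p = 0.012), a call that was lost with DESeq2 (adjusted p = 0.054), without shControl replicate 2 (0.066) and without shLmna replicate 2 (0.053) or 3 (0.063). Thbs1 was at the level of the filter in 0 shControl and 3 shLmna libraries and so entered the fit through the group in which it was high. Ctgf, a secreted matricellular growth factor modulator, gave 32, 51 and 33 UMIs against 11, 14 and 17 and was called lower (log2 fold change -1.37, adjusted p = 0.011), a call lost without shControl replicate 2 (0.067) or shLmna replicate 1 (0.053). Its relative Cyr61 had a log2 fold change of -0.95 (adjusted p = 0.0014), under the threshold but past it in 3 of 14 alternative analyses, and the actin-disassembly cofactor Wdr1 had -0.21 (adjusted p = 0.325).

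**Figure D4:**
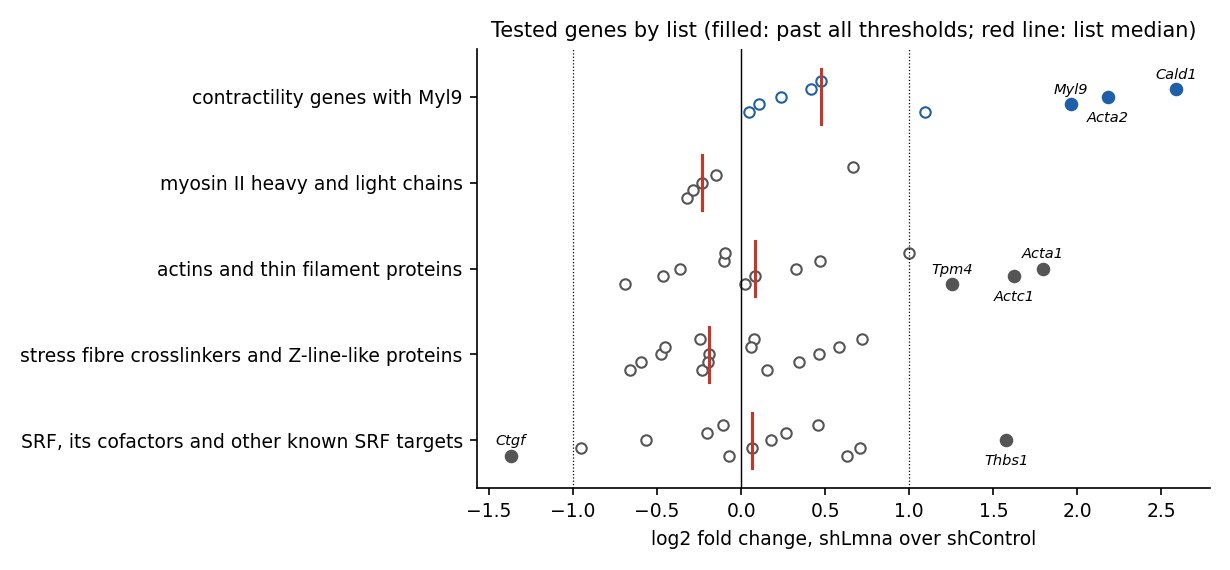
Log2 fold changes of shLmna over shControl for every tested gene of the contractility group (blue) and of 4 of the 5 further pathway lists (grey), with filled, named points for genes past all thresholds and a red line at the median of each list. The medians of these 4 lists lie between -0.23 and 0.08, and that of the contractility group at 0.48. Both the group and the lists were chosen with results of these data known.

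Several of these genes also mark other cell types, and in bulk RNA fewer cells of a type and less RNA per cell cannot be told apart. Of 6 smooth muscle markers 2 (Des and Actg2) were among the counted genes, and their summed normalized counts were 142.1 to 177.3 in shControl and 268.1 to 383.1 in shLmna. Most of the sum was Actg2, the muscle actin described above. Des overlapped between the groups and was not called (log2 fold change 0.63, edgeR adjusted p = 0.309). The other 4, Myh11, Lmod1, Myocd and Synpo2, were not found among the counted genes. Of 10 fibroblast and pericyte markers 5 were counted, at sums of 46.1 to 46.8 and 78.4 to 92.5, and Col3a1, with 0 UMIs in all shControl libraries and 13, 12 and 12 in shLmna, was called higher, having entered the fit through the shLmna libraries. The largest part of the sum was Pdgfrb, at 27.4 ± 3.85 and 46.6 ± 1.63 (log2 fold change 0.74, edgeR adjusted p = 0.046), which was not called. Pdgfra had a log2 fold change of 0.04 (edgeR adjusted p = 0.958). Col1a1 and Col1a2, at 0 to 11 UMIs, were not tested. The sums of the 2 of 5 counted myoepithelial markers, Krt14 and Krt17, went the other way, at 32.6 to 34.3 and 6.38 to 22.5. Krt14 was not called (edgeR adjusted p = 0.077), and Krt17, at 2 to 17 UMIs, was not tested. The 2 of 5 counted leukocyte markers summed to 14.6 to 21.7 and 38.3 to 44.9, with Lyz2 called higher, and the 1 of 5 endothelial markers to 1.55 to 7.91 and 1.86 to 5.28. The 5 of 8 luminal epithelial markers summed to 709.2 to 851.5 and 759.6 to 853.8, most of it Krt8. Epcam, at 33.9 ± 1.56 normalized counts in shControl and 17.6 ± 10.1 in shLmna, was lower in every shLmna library than in any shControl library, as were 15.7% of all tested genes. It was not called (log2 fold change -0.90, edgeR adjusted p = 0.091). Krt18 had a log2 fold change of -0.53, Krt8 of 0.07 and Erbb2 of 0.37, and none of them was called. Krt7 was not tested. The part of these cells in the differences of Myl9, Acta2 and Cald1 was not tested.

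**Figure D5:**
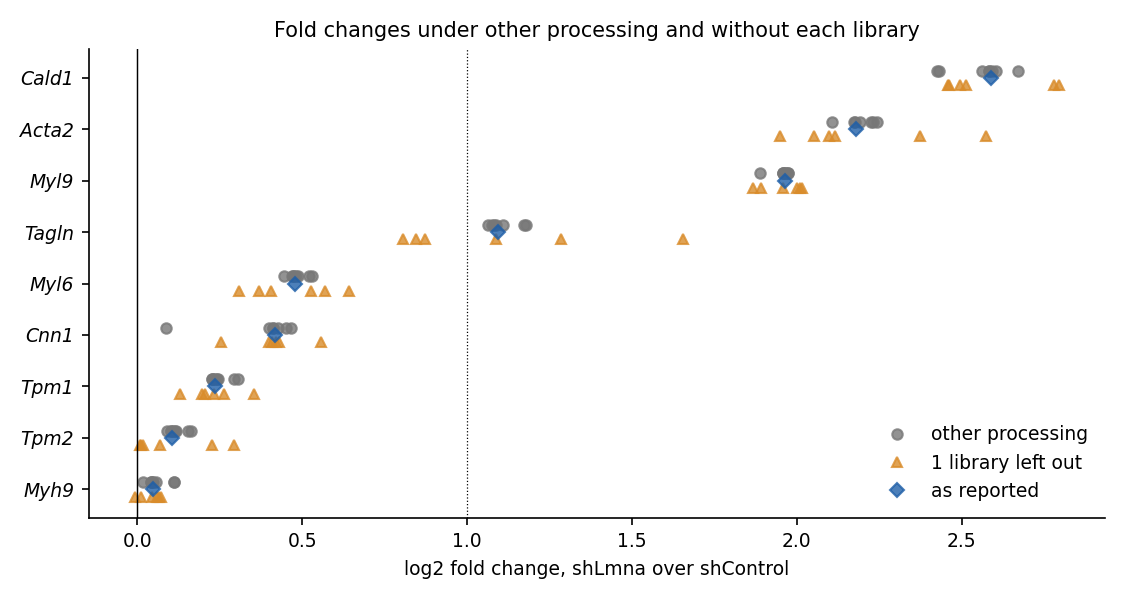
Log2 fold changes of shLmna over shControl for the 9 tested contractility genes as reported (blue), under other processing (grey) and with each library left out (orange). Myl9, Acta2 and Cald1 stay to the right of the dotted line at 1 throughout, from 1.87 to 2.02, 1.95 to 2.58 and 2.42 to 2.79, while Tagln crosses it. The authors' ComBat values, on another scale, are not drawn.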

How the data were processed

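The 10 genes and the pathway and marker lists were chosen with earlier results of these data known. The authors' reads were processed with Cutadapt, STAR 2.4.2a (mm10) and a modified HTSeq-count, which assigned UMIs to the final 1000 bases of RefSeq genes, extended by 100 bases. The deposited counts are whole numbers, not normalized, for 10520 genes. The authors also deposited normalized log2 values corrected with ComBat, for a batch that is not named, and these were used only as an alternative. A deposited table of the authors' DESeq2 comparison (means, fold changes, p-values, adjusted p-values and direction) was not used.

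The contrast was fitted with edgeR 4.0.16 under R 4.3.3 (filterByExpr with a minimum count of 10, here 3.78 CPM in 3 libraries, TMM, quasi-likelihood test without a block). DESeq2 1.42.0 was an alternative. The script was checked on simulated counts. Groups follow the genotype labels, shLmna for libraries whose titles read shRNA4. Gene positions and 3′ end GC content came from GENCODE M21 and promoters from RefSeq, read with Python 3.11.15 and pandas 2.3.3 (plots: matplotlib 3.10.9). The named genes are the 10, Lmna, and from the lists those past the thresholds, those of the same families as the 10, and the 2 most abundant of each list. 1 pathway list and 1 of its genes are not reported by themselves here. Col3a1, Lyz2, Krt8, Epcam and the other markers come from the marker lists. Totals of 1846208 to 3242051 UMIs per library set the precision. Wilson intervals cover counting error only.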

Additional observations from a re-analysis of the deposited data

How the results depend on the processing

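The directions and calls of Myl9, Acta2 and Cald1 held under every alternative in which they were tested (Acta2 was not tested at a mean count of at least 50), and 3 of the 10 genes were called higher throughout except for 2 at that filter and 4 without shControl replicate 3, where Tagln joined. The alternatives refit the same libraries for genes chosen with this contrast known, so that they describe the processing and lend the differences no support. In the main fit Acta2 passed the filter through the shLmna libraries. At a mean count of at least 50 the calls over all genes were 112 higher and 46 lower of 5846 tested, and those of the pathway lists 3 and 1, since fewer genes were tested. Leaving out each library gave 92 (without shControl replicate 2) to 192 genes called lower and 1 (without shLmna replicate 1) to 3 pathway genes called lower. Of the directions, Actg1 turned to -0.043 with counts thinned to the smallest library and ranged from -0.13 to 0.28 with a library left out, Tagln2 from -0.24 to 0.054 and Myh9 from -0.0079 to 0.073. The cause was not tested. Same-numbered libraries had deviations from the group means that correlated at 0.35, -0.11 and 0.0052. Libraries of different numbers were not compared in this way, so that these values cannot decide whether the numbers pair the libraries. A replicate block gave 363 genes called higher and 155 lower, 3 of the 10 genes, and 5 and 2 pathway genes. With it 1350 genes had an edgeR adjusted p below 0.05, against 1232 without. In the authors' ComBat log2 values, an alternative chosen after seeing the data, the difference of means was 1.22 for Myl9, 1.20 for Cald1 and 0.55 for Acta2. Low counts are compressed on that scale, where Mylk, at 2 to 13 UMIs, lies between 5.55 and 5.80, so that these differences are not comparable in size with the fold changes. Depth limits Mylk, Acta2 and Tagln most, at 2 to 41 UMIs per library.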
